A study of Drosophila melanogaster with 2 samples.

Results

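The genes described here are the Drosophila melanogaster cuticle protein genes whose symbols start with Cpr, Twdl, Lcp, Ccp84A, Edg or Acp65A. A probe set that names 1 gene was found for 91 of them, among 10844 genes in all, namely 58 Cpr, 20 Twdl, 5 Lcp, 4 Ccp84A and 3 Edg genes and Acp65Aa. Expression was measured on 1 array of homozygous tdf mutant embryos and 1 array of yw embryos, to look for genes regulated by TDF, a DNA-binding transcription factor now called Apontic (apt). Whole embryos of both groups were kept for 16 hours after egg laying at 25 °C. The tdf embryos were told from the other embryos of their stock by a CyO balancer chromosome that carries an act-GFP marker, and yw is a stock of its own, so the genetic background and the tdf mutation cannot be told apart. The sources used here name neither the tdf allele nor the number of embryos in an extract. Each genotype has 1 array, so no difference below has a replicate check, and none was tested.

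Insect cuticle is an extracellular layer of chitin fibres and proteins that the epidermis secretes on its outer face, and the embryo lays down the cuticle of the first larva late in development. Most Cpr, Lcp, Ccp84A, Edg and Acp65A proteins carry the Rebers-Riddiford domain, which binds chitin. The Twdl (Tweedle) proteins form a separate family of cuticle proteins, known from dominant mutations that make the body short and stout. Many of these genes lie in tandem clusters. Cpr symbols and some others give the cytological band of the gene, such as 49A in Cpr49Ac, whereas Twdl symbols give none. Different members are used in embryonic, larval, pupal and adult cuticle.

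Values are MAS5 signals, intensities on a linear scale. Signals were compared between the arrays for the same probe set and not between probe sets, whose probes differ. Signals below 97.3, the 40th percentile of all gene probe sets over both arrays, were set to that floor for the log2 ratio of tdf over yw. Where 1 of both signals lay below it, the ratio is a lower bound on the size of the difference, written "at least". Genes with at least 1 signal at or above the floor are called measured. The median signal over 14010 probe sets was 154 on the tdf array and 153 on the yw array. For 278 genes with several probe sets that passed the floor throughout, the log2 ratio varied within a gene with an SD of 0.533, which describes the spread within the arrays and not between embryos. The apt probe set itself had a signal of 1051 on the tdf array and 979 on the yw array, so it was not lower on the tdf array. Its place relative to the lesion is unknown here, so this signal is no check of the genotype.

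Cuticle protein genes stood slightly higher on the tdf array as a group, and few of them by a large amount. Of the 91 genes, 72 were measured, 64 on both arrays, 5 above the floor only on the tdf array and 3 only on the yw array. The median log2 ratio of the 72 was 0.38, with quartiles of 0.02 and 0.73, against a median of 0.03 over all 7639 measured genes. A ratio above 0 was seen in 54 of the 72 (75%), against 52.4% of all measured genes. At least 2-fold higher were 8 genes (11.1%), where 3.6% of all measured genes were. At least 2-fold lower were 2 (2.78%), where 6.19% of all measured genes were. Both lower genes, and TwdlR among the higher ones, were above the floor on 1 array only. Of the 64 genes above it on both arrays, 7 (10.9%) were at least 2-fold higher, against 3.21% of all such genes. None of the 64 was at least 2-fold lower, against 5.61% of all such genes. Ratios above 0 were seen in 49 of the 64 (76.6%), against 51.6%. With the floor at the 60th percentile, the counts higher and lower were 4 and 0 of 54 measured. The shares of all genes at that floor were not counted. At the smaller limit of 1.5-fold, 23 genes were higher and 5 lower, against 13.2% and 15.3% of all measured genes. At 3-fold, 0 were higher and 1 lower, against 0.458% and 1.78% of all measured genes. In whole embryos, more cells that express a gene and more RNA per cell cannot be told apart.

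**Figure D1:**
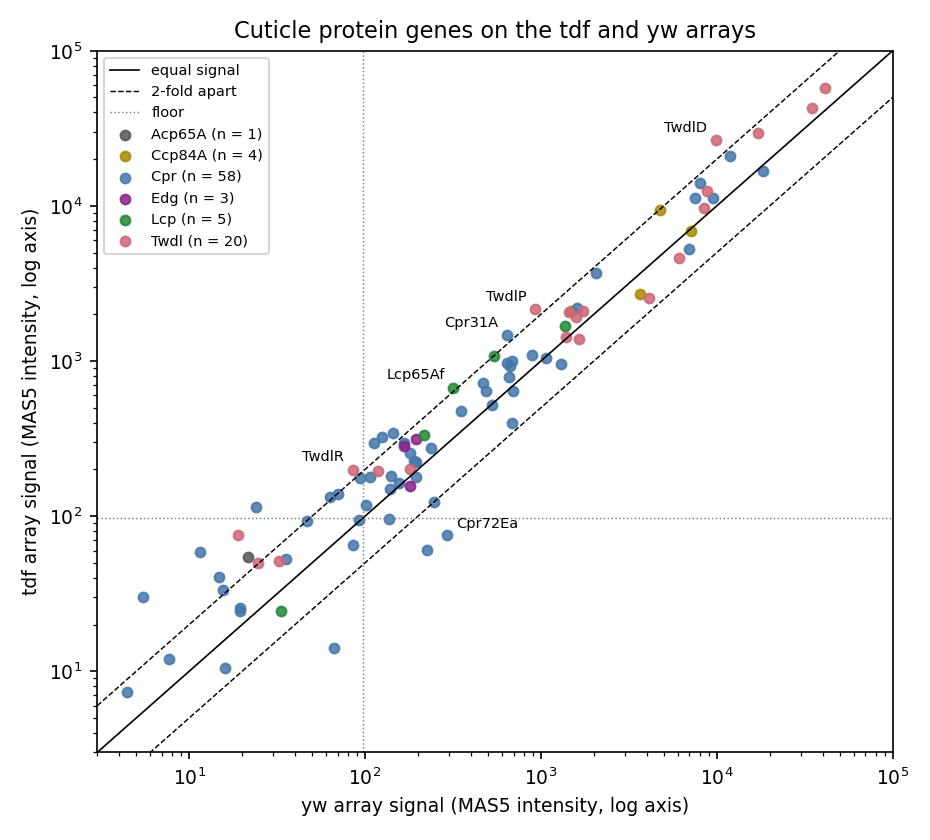
Signal of each of the 91 cuticle protein genes on the tdf array (vertical, log axis) and the yw array (horizontal, log axis), coloured by subfamily, with lines of equal signal, 2-fold limits and the floor of 97.3. Most points lie just above the line of equal signal, and those below the floor on both arrays were not interpreted.

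The 19 genes below the floor on both arrays were Acp65Aa, Lcp9, TwdlO, TwdlS, Twdlalpha and 14 Cpr genes. Acp65Aa, an adult cuticle protein gene, had signals of 54.7 on the tdf array and 21.5 on the yw array. The Cpr genes among them were Cpr5C, Cpr30B, Cpr47Ea, Cpr47Ec, Cpr47Ee, Cpr49Ab, Cpr49Ad, Cpr50Ca, Cpr62Ba, Cpr65Az, Cpr72Eb, Cpr73D, Cpr76Bd and Cpr100A. Their ratios are not given, because MAS5 signals this low are noisy.

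The Twdl genes had a median log2 ratio of 0.30 over 17 measured, 14 of them above 0. At least 2-fold higher were 3 (17.6%, against 3.6% of all measured genes), and none was at least 2-fold lower (against 6.19%). TwdlD, a Tweedle gene known for a dominant body shape mutation, had a signal of 26409 on the tdf array and 9840 on the yw array, 2.68-fold higher. This was the highest ratio among the cuticle protein genes measured by the probe sets used. TwdlP had 2150 on the tdf array and 920 on the yw array, 2.34-fold higher. TwdlR had 199 on the tdf array and 85.1 on the yw array, at least 2.05-fold higher, with a log2 ratio of 0.95 under loess scaling. These 3 genes lie in the same genomic run.

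The 3 Twdl genes of brightest signal were all higher by less than 2-fold. TwdlM had 57775 on the tdf array and 41034 on the yw array, a log2 ratio of 0.49 that was 0.20 under loess scaling. TwdlF had 42554 on the tdf array and 34596 on the yw array, a log2 ratio of 0.30. TwdlN had 29595 on the tdf array and 17212 on the yw array, a log2 ratio of 0.78. The probe set used for TwdlN is of the family type (suffix _f), which marks probes shared within a gene family, so this signal cannot be assigned to TwdlN alone. The incomplete type (_i), used for TwdlM, marks a probe set with fewer probes than usual.

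At the lower end of the family, TwdlV had 2561 on the tdf array and 4117 on the yw array, 1.61-fold lower. TwdlW had 4593 on the tdf array and 6096 on the yw array, a log2 ratio of -0.41, and TwdlQ had 1394 on the tdf array and 1651 on the yw array, a log2 ratio of -0.24. All other measured Twdl genes had log2 ratios from 0.03 for Twdlbeta to 0.73 for TwdlJ. TwdlJ was read by a probe set of the type _r, for which some rules of probe choice were dropped. By the probe sets used, the family spanned 2.68-fold higher to 1.61-fold lower.

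The Cpr genes, the largest subfamily, had a median log2 ratio of 0.33 over 44 measured, with 32 above 0. Of the 44, 4 (9.09%) were higher and 2 (4.55%) lower by 2-fold or more, against 3.6% and 6.19% of all measured genes, so the lower share is near that of all genes. Cpr49Af had a signal of 296 on the tdf array and 113 on the yw array, 2.63-fold higher. Cpr78Cb had 322 on the tdf array and 125 on the yw array, 2.57-fold higher, and Cpr47Eb had 343 on the tdf array and 143 on the yw array, 2.39-fold higher. On the yw array these 3 genes were close to the floor. With the floor at the 60th percentile their log2 ratios became bounds of at least 0.32, 0.44 and 0.53, so none was called 2-fold. Cpr31A had 1461 on the tdf array and 642 on the yw array, 2.28-fold higher, and was above the floor by a wide margin on both arrays.

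Both lower Cpr genes were below the floor on the tdf array. Cpr72Ea had 76.1 on the tdf array and 294 on the yw array, at least 3.03-fold lower, the lowest ratio among the cuticle protein genes measured. Its bound was a log2 ratio of -0.31 or lower with the floor at the 60th percentile. Cpr49Ac had 60.3 on the tdf array and 226 on the yw array, at least 2.33-fold lower, and was not measured at that higher floor. Just outside the 2-fold limit, Cpr67B had 124 on the tdf array and 248 on the yw array, a log2 ratio of -0.998, and it crossed the limit under centring, quantile normalisation and loess.

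The Cpr genes of brightest signal went different ways. Cpr64Ad had 16751 on the tdf array and 18402 on the yw array, a log2 ratio of -0.14. Cpr65Ea had 21057 on the tdf array and 11853 on the yw array, 1.78-fold higher. Cpr47Eg had 14076 on the tdf array and 8024 on the yw array, 1.75-fold higher. The log2 ratios of these 3 genes lay up to about 1 apart, against the SD of 0.533 between probe sets of a gene, and whether they differ was not tested.

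The Cpr genes named next lie outside the larger clusters. Cpr51A had 11163 on the tdf array and 7507 on the yw array, a log2 ratio of 0.57, and Cpr67Fa2 had 972 on the tdf array and 638 on the yw array, a log2 ratio of 0.61. Its neighbour Cpr67Fb went the other way, with 398 on the tdf array and 681 on the yw array, 1.71-fold lower. Cpr50Cb had 964 on the tdf array and 1295 on the yw array, a log2 ratio of -0.43. Cpr97Ea and Cpr97Eb had log2 ratios of 0.49 and 0.21, Cpr62Bb and Cpr62Bc 0.39 and 0.26, and Cpr92A and Cpr92F 0.51 and -0.01. Cpr66Cb stood at 0.54, Cpr56F at 0.30, Cpr12A at 0.26, Cpr72Ec at 0.23, Cpr35B at 0.19, Cpr78E at 0.10 and Cpr23B at -0.04 on the log2 scale. Cpr11A and Cpr11B were above the floor only on the tdf array, with log2 ratios of at least 0.51 and at least 0.24.

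**Figure D2:**
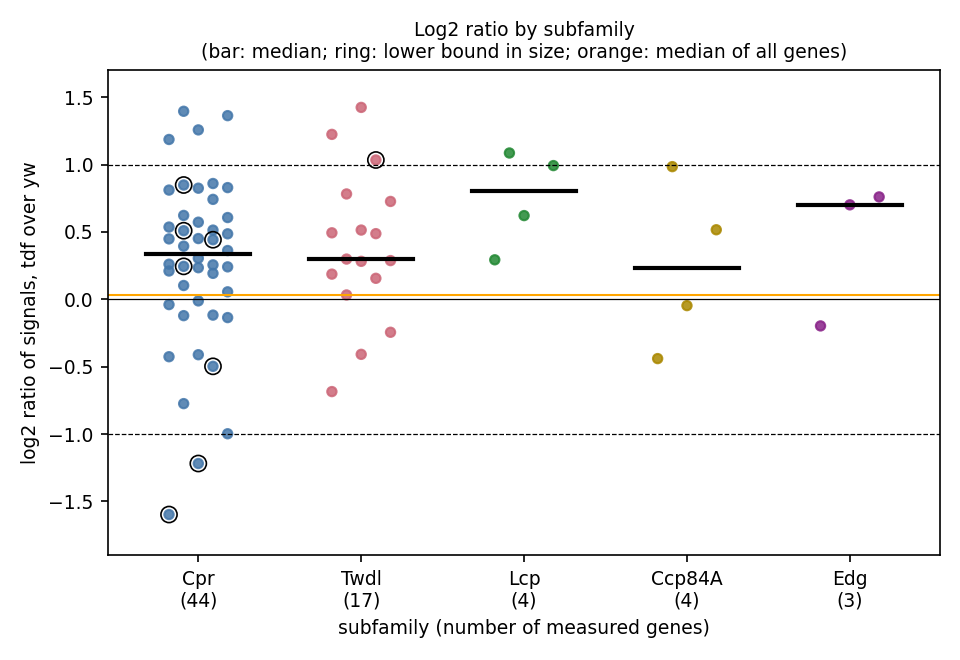
Log2 ratio of signals (tdf over yw) of each measured gene by subfamily, with the subfamily median as a bar, bounds ringed, dashed lines at 2-fold and the median of all measured genes in orange. The medians run from 0.23 for Ccp84A to 0.81 for Lcp, and the single genes of Cpr and Twdl spread over a wider range than the medians.

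The Lcp genes, named for larval cuticle proteins, all had ratios above 0 among the 4 measured, which belong to the Lcp65A cluster. Lcp65Af had a signal of 674 on the tdf array and 318 on the yw array, 2.12-fold higher. Lcp65Aa had 1082 on the tdf array and 544 on the yw array, 1.99-fold higher and so just short of the limit. Lcp65Ac had 1687 on the tdf array and 1377 on the yw array, a log2 ratio of 0.29, and Lcp65Ad had 333 on the tdf array and 217 on the yw array, a log2 ratio of 0.62. The median log2 ratio was 0.81. It rests on 4 genes of 1 cluster, and the difference from the Cpr and Twdl medians was not tested.

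The Ccp84A genes, a cluster of cuticle genes at band 84A, were split. Ccp84Ad had 9401 on the tdf array and 4751 on the yw array, 1.98-fold higher, read by a family-type probe set. Ccp84Ae had 2111 on the tdf array and 1476 on the yw array, 1.43-fold higher. Ccp84Ac had 2710 on the tdf array and 3676 on the yw array, 1.36-fold lower, and Ccp84Ag had 6894 on the tdf array and 7121 on the yw array, 1.03-fold lower. The median log2 ratio was 0.23, and -0.05 when Ccp84Ad was left out by keeping plain probe sets only.

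The 3 Edg genes, first found as ecdysone-dependent genes of prepupal tissue, were all above the floor in these embryos. Edg78E had a signal of 315 on the tdf array and 194 on the yw array, a log2 ratio of 0.70, and Edg91 had 281 on the tdf array and 166 on the yw array, a log2 ratio of 0.76. Edg84A had 157 on the tdf array and 180 on the yw array, a log2 ratio of -0.20. None of the 3 was 2-fold apart, against 3.6% higher and 6.19% lower among all measured genes.

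**Figure D3:**
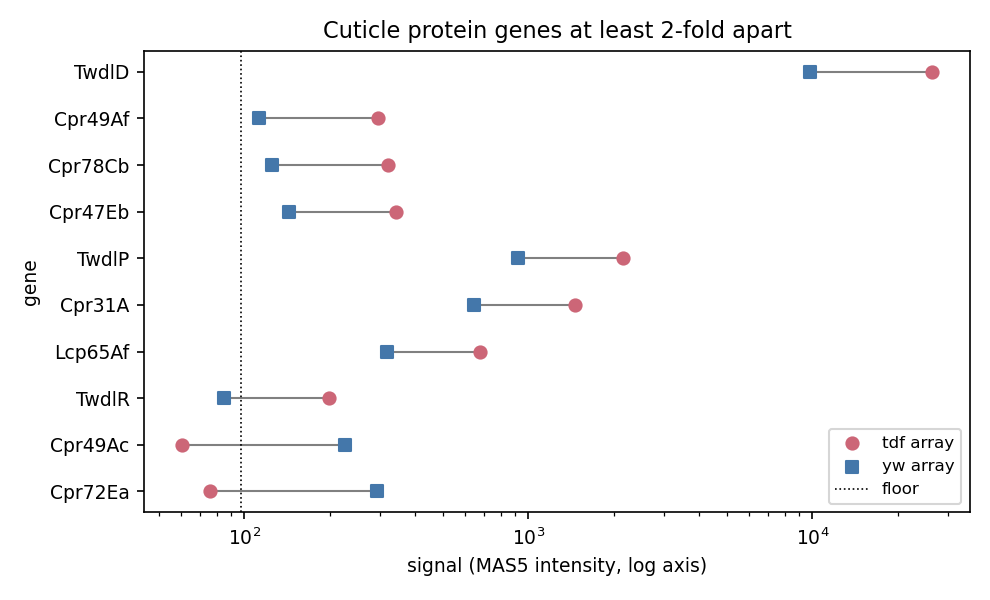
Signals of the 10 cuticle protein genes at least 2-fold apart (log axis), tdf array as circles and yw array as squares, ordered by log2 ratio. TwdlD stands far above the floor on both arrays, whereas TwdlR, Cpr49Ac and Cpr72Ea have 1 signal below it.

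Grouped by cytological band, or for Twdl by gene order, 10 clusters had at least 3 measured members. The 42 measured members of these clusters had a median log2 ratio of 0.49, with 7 (16.7%) at least 2-fold higher and 1 (2.38%) lower. The 30 measured members outside them had a median of 0.26, with 1 (3.33%) at least 2-fold higher, Cpr31A, and 1 (3.33%) lower, Cpr72Ea. Of all measured genes, 3.6% were higher and 6.19% lower by that size. Members of a cluster can share sequence and so probes, and no test of this difference was made.

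The clusters at 65A and 65E and the run of Twdl genes from TwdlM to TwdlQ had the highest medians together with 76B at the floor of 97.3. With the floor at the 25th percentile, the Cpr78C genes had the highest, 1.06, and the run from TwdlM to TwdlQ had 0.49. At 65E the 3 genes lay close together. Cpr65Eb had 3712 on the tdf array and 2046 on the yw array, a log2 ratio of 0.86, and Cpr65Ec had 2208 on the tdf array and 1615 on the yw array, a log2 ratio of 0.45. With Cpr65Ea at 0.83 the median was 0.83, and 0.49 after quantile normalisation. The Twdl run holds 9 measured genes with a median of 0.73, from -0.24 for TwdlQ to 1.42 for TwdlD, with 8 of 9 above 0. The 3 genes of the Cpr78C cluster also lay above 0, with Cpr78Cc at 479 on the tdf array and 351 on the yw array, a log2 ratio of 0.45, and Cpr78Ca at 132 on the tdf array and 63.3 on the yw array, a log2 ratio of at least 0.44. At 76B, Cpr76Ba had 175 on the tdf array and 93.5 on the yw array, a log2 ratio of at least 0.85. Cpr76Bb had 178 on the tdf array and 107 on the yw array, a log2 ratio of 0.74, whereas Cpr76Bc had 179 on the tdf array and 195 on the yw array, a log2 ratio of -0.12.

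Other clusters held members that went both ways. At 49A, Cpr49Af was 2.63-fold higher and Cpr49Ac at least 2.33-fold lower, while Cpr49Ae had 296 on the tdf array and 167 on the yw array, a log2 ratio of 0.82, and Cpr49Ah a log2 ratio of 0.06. At 47E, Cpr47Eb was 2.39-fold higher, Cpr47Ed had a log2 ratio of 0.36 and Cpr47Ef, at 96.5 on the tdf array and 137 on the yw array, was at least 1.41-fold lower. At 64A the 4 genes had log2 ratios from -0.14 for Cpr64Ad to 0.62 for Cpr64Aa, which had 726 on the tdf array and 472 on the yw array, with a median of 0.06. At 84A, where Edg84A joins the Ccp84A genes, the median was -0.05, and the run TwdlF, TwdlG and TwdlV had a median of 0.19. After quantile normalisation the medians of 64A and of that run were -0.02.

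The median of the members was above that of the neighbouring genes in 8 of the 10 clusters and below it at 84A and in the run from TwdlF to TwdlV. The 5 nearest protein-coding genes on each side that are no cuticle protein genes gave 55 measured genes, with a median log2 ratio of 0.10. Of these, 1 (1.82%) was at least 2-fold higher and 2 were lower, against 3.6% and 6.19% of all measured genes. Beside the 65A cluster, whose members had a median of 0.81, the 4 measured neighbours had a median of -0.39. Beside the 65E cluster, the 5 measured neighbours had a median of 0.44, the highest of the 10 sets of neighbours.

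**Figure D4:**
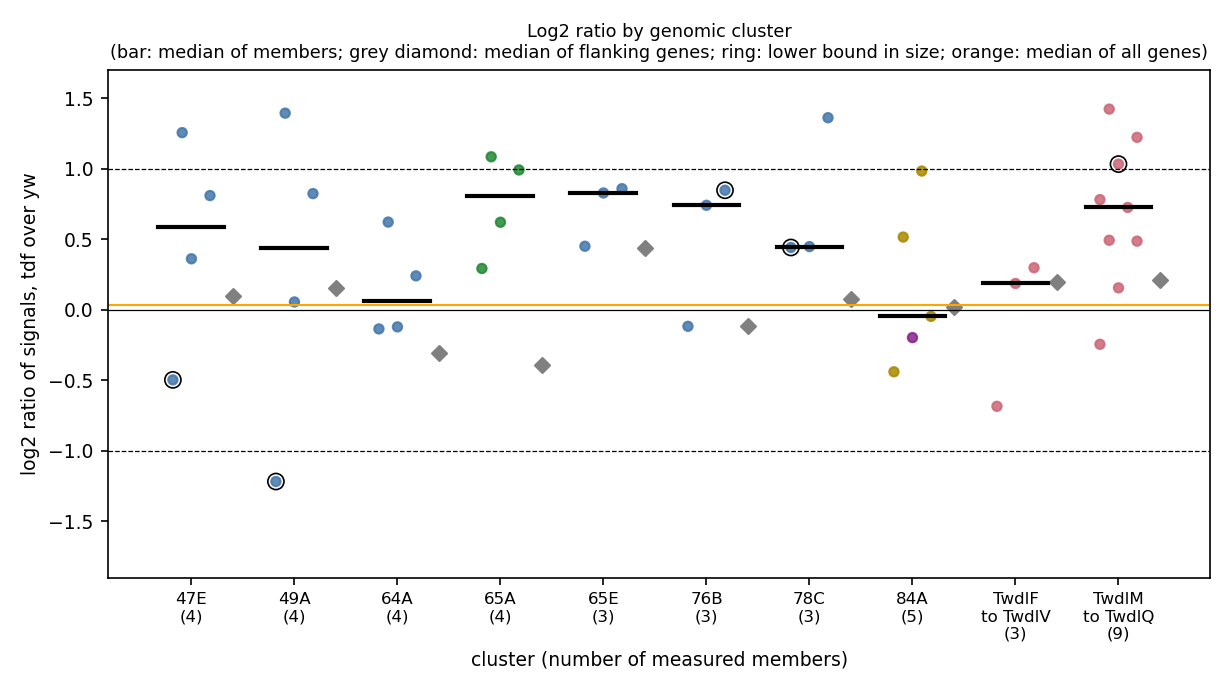
Log2 ratio of signals (tdf over yw) of each measured member in the 10 genomic clusters, coloured by subfamily, with the median of members as a bar, the median of flanking genes as a grey diamond and bounds ringed. At 49A the members span 2-fold in both directions, and at 65A and 65E all lie above 0.

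Further probe sets gave a second reading for a few genes. Cpr66D had 5251 on the tdf array and 6982 on the yw array by the probe set used, a log2 ratio of -0.41, and 2235 on the tdf array and 2953 on the yw array by the other, a log2 ratio of -0.40. TwdlM had 18547 on the tdf array and 10479 on the yw array by its other probe set, a log2 ratio of 0.82. TwdlT had a log2 ratio of 0.29 by the probe set used and -0.21 by the other. The other probe set of TwdlN, of the incomplete type, had 8675 on the tdf array and 764 on the yw array, 11.3-fold higher, in contrast to 1.72-fold by the probe set used. With both averaged, the log2 ratio of TwdlN was 1.09.

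A further 7 probe sets are shared by several genes, at least 1 of them a cuticle protein gene, and 6 of the 7 had ratios above 0. Of all measured genes, each read by a probe set that names 1 gene, 52.4% had ratios above 0. The probe set for Lcp65Ag1 and Lcp65Ag2 had 6060 on the tdf array and 3790 on the yw array, a log2 ratio of 0.68. The probe set that also takes in Lcp65Ag3 had 39488 on the tdf array and 35641 on the yw array, a log2 ratio of 0.15. The probe set for TwdlL and TwdlB had 28885 on the tdf array and 17991 on the yw array, a log2 ratio of 0.68, against 0.49 for TwdlL alone. The shared reading of Cpr67Fa1 and Cpr67Fa2, at a log2 ratio of 0.57, lay next to that of Cpr67Fa2 alone at 0.61. Ccp84Aa and Ccp84Ab together had 323 on the tdf array and 332 on the yw array, a log2 ratio of -0.04.

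Gene length moved with these ratios. The measured cuticle protein genes had a median span, introns included, of 1113 bases in the RefSeq gene table, and the other measured genes 2727 bases. Among genes that are no cuticle protein genes, those spanning up to 700 bases had a median log2 ratio of 0.25, those above 700 and up to 1000 bases 0.15, those above 1000 and up to 1500 bases 0.06, and longer ones -0.0017. Up to 700 bases, 1 of 11 cuticle protein genes (9.09%) and 30 of 309 other genes (9.71%) were at least 2-fold higher. Above 1500 bases, 2 of 20 cuticle protein genes (10%) and 3.11% of the 5716 other genes were. The cuticle protein genes had medians of 0.45, 0.56, 0.24 and 0.30 over the same bins of span, each above that of the other genes in its bin.

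**Figure D5:**
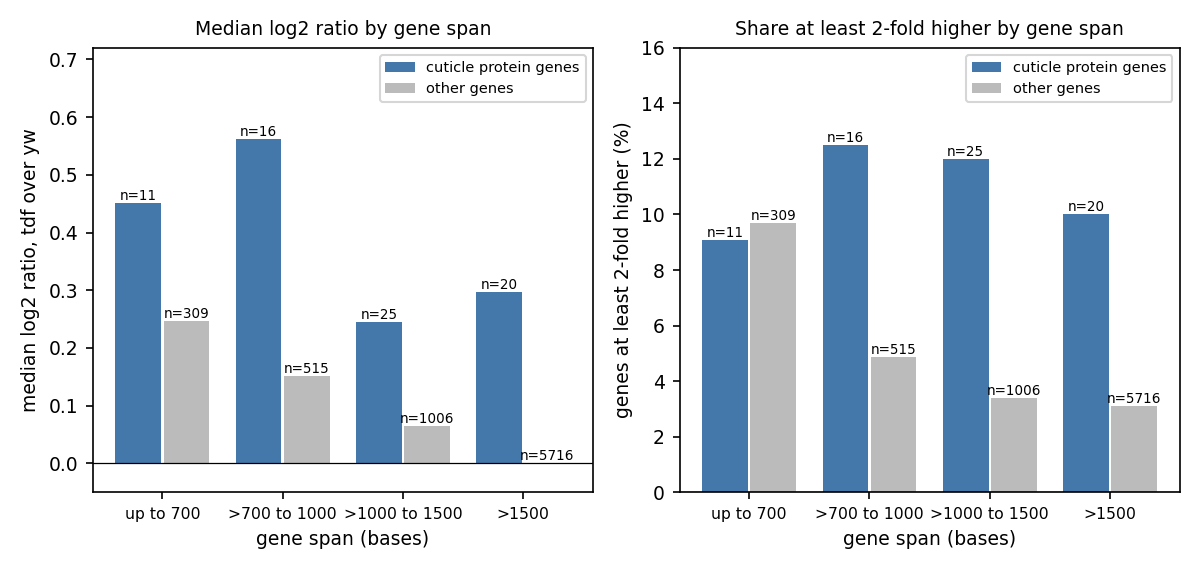
Median log2 ratio (left) and percentage of genes at least 2-fold higher on the tdf array (right) in bins of gene span in bases, for measured cuticle protein genes and other measured genes, with the number of genes above each bar. In genes up to 700 bases the percentages are 9.09 and 9.71, and the medians are 0.45 and 0.25.

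The ratios were also set beside signal, and the arrays differed in signs of RNA quality. At mean signals up to 500, 25 of 31 cuticle protein genes (80.6%) had ratios above 0, against 52.7% of other genes. Between 500 and 3000, 18 of 24 (75%) did, against 48.5% of other genes. Above a mean signal of 3000, 11 of 17 (64.7%) did, against 63.9% of other genes, with median log2 ratios of 0.30 for the cuticle protein genes and 0.14 for the others. The 3′ over 5′ signal of a transcript grows as RNA is degraded or copied in part. On both arrays it was 14.9 or more for each control. It was 52.3 on the tdf array and 32.7 on the yw array for actin, and 32.2 on the tdf array and 14.9 on the yw array for 18S rRNA. For eIF-4a it was 56.6 on the tdf array and 45.5 on the yw array. Only for GAPDH was it lower on the tdf array, at 17.3 against 22.8 on the yw array. The 6 poly(A) control probe sets above the floor on both arrays, read from RNA spiked in before labelling, had a median log2 ratio of -0.91. The part of gene span, signal, spiked-in controls and RNA quality in the higher ratios was not tested.

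Other genes of the cuticle had lower medians than the 0.38 of the cuticle protein genes, differences that were not tested. Of 14 measured genes of chitin synthesis and modification, none was 2-fold apart, against 3.6% higher and 6.19% lower among all measured genes. Their median log2 ratio was 0.16. The ratio was above 0 in 11 (78.6%), against 52.4% of all measured genes, and below 0 in 3. It was lowest for Cht5, with 399 on the tdf array and 792 on the yw array, 1.98-fold lower and so just short of the limit. The chitin deacetylase verm had 18934 on the tdf array and 16007 on the yw array, a log2 ratio of 0.24. The 16 measured genes listed as other proteins of the cuticle and the apical matrix had a median of 0.17. At least 2-fold higher were 2 (12.5%) and none was lower, against 3.6% and 6.19% of all measured genes. The 2 higher genes were drd and the chitin-binding Peritrophin-A. Of these, drd had 651 on the tdf array and 252 on the yw array, 2.58-fold higher. It is known from mutants with a defective peritrophic matrix in the gut. Peritrophin-A had 2220 on the tdf array and 1001 on the yw array, 2.22-fold higher. The chitin-binding obst-A had 43642 on the tdf array and 38632 on the yw array, a log2 ratio of 0.18. The 7 measured tanning genes had a median of 0.24, amd standing at 6617 on the tdf array and 5595 on the yw array. None of the 7 was 2-fold apart, against 3.6% higher and 6.19% lower among all measured genes.

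Of 10 measured regulators linked to cuticle genes, none was 2-fold apart and the median log2 ratio was 0.01. Of all measured genes, 3.6% were at least 2-fold higher and 6.19% lower, so a count of none in 10 lies near these shares. The brightest, the transcription factor gene rib, had 1310 on the tdf array and 1984 on the yw array, a log2 ratio of -0.60. The nuclear receptor gene ftz-f1, which acts on Edg84A, had 1272 on the tdf array and 1148 on the yw array, a log2 ratio of 0.15. The epidermal transcription factor gene grh had 126 on the tdf array and 155 on the yw array, a log2 ratio of -0.29.

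Among markers of other cells, the 5 measured of 8 listed muscle genes were all above 0, where 52.4% of all measured genes were. Their median log2 ratio was 0.27. Their signals ran from 2833 for Mf to 49018 for Mlc2 on the tdf array and from 2201 to 40667 on the yw array. Of genes with a mean signal above 3000 that are no cuticle protein genes, 63.9% had ratios above 0. The 5 measured of 6 listed hemocyte genes had a median of 0.23, with 4 above 0 (80%, against 52.4% of all measured genes) and 1 below. Col4a1 had 8414 on the tdf array and 7112 on the yw array, a log2 ratio of 0.24. Pxn had 862 on the tdf array and 1010 on the yw array, a log2 ratio of -0.23. NimC1 was above the floor only on the tdf array, and Hml was below it on both. The 2 measured neuronal genes, elav and nSyb, had log2 ratios of -0.15 and -0.44. Genes of the egg and early embryo were listed with earlier results of these data known, so their count is no independent result. At least 2-fold lower were 8 of 8 measured (100%), against 6.19% of all measured genes. The 8 had a median of -3.28 or lower. Their signals ran from 54.1 to 928 on the tdf array and from 330 to 9664 on the yw array. CycB, CycB3, dah and kuk were above the floor on both arrays, with log2 ratios of -3.38, -3.18, -3.45 and -3.04. The ratios of smg, swa, twe and bcd are bounds, from -1.76 or lower for bcd to -3.97 or lower for smg. The part of these differences in the cuticle protein ratios was not tested.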

How the data were processed

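Each of the 2 arrays measured total RNA of whole embryos of 1 genotype, labelled with biotin. The authors deposited linear intensities from MAS5, per the submitters' processing notes. The sources used here give neither its version nor its target signal. The mean signal, trimmed by 2% at each end, was 500.1 on both arrays, so each had been scaled as a whole. MAS5 leaves dim probe sets noisy, and 1 scaling factor corrects no trend of the ratio with brightness.

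Of 13966 gene probe sets, 12443 named 1 gene, 327 several and 1196 none in the platform annotation. Through gene ID, 12394 symbols were updated to, or kept as, those of the RefSeq table of Release 6 plus ISO1 MT. The probe set of highest mean signal stood for a gene. That table served for names, gene order and span; the array values name no build, so no coordinates are given. Of 121 protein-coding genes with these symbol prefixes (without Cpr itself, which encodes cytochrome P450 reductase), 91 had such a probe set. Twdl genes with at most 3 other genes between neighbours formed a run.

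With 1 array a genotype there is no test and no p-value; the number of arrays limits the precision. The members, lists and rules were chosen with earlier results of these data known. Named genes are, per subfamily, those at least 2-fold apart, the 3 brightest and the extremes, per cluster the extremes, per list those 2-fold apart and the brightest, genes with further probe sets, and apt; others, among them the genes described in a cluster or an Lcp, Ccp84A or Edg list beyond these, were chosen after their values were seen. Steps were tested on simulated arrays with 200 changed genes. Only median ratios of genes above the floor on both arrays were checked there, so bounds and counts at the 2-fold limit were not. Alternatives were centring, quantile normalisation, loess (span 0.3), the 25th or 60th percentile as floor, all probe sets averaged, plain probe sets (without a suffix letter), a limit of 1.5-fold or 3-fold, and only those members with both signals above the floor. The comparisons by gene span, flanking genes and shared probe sets were added after the data were examined. Software was statsmodels 0.14.6 and pandas 2.3.3 under Python 3.11.15. Protein and promoter sequences were not used here.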

Additional observations from a re-analysis of the deposited data

Results flagged for a closer look

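A second probe set of TwdlN, not used in the comparisons, had a signal of 8675 on the tdf array and 764 on the yw array, a log2 ratio of 3.50. The probe set used for TwdlN had a log2 ratio of 0.78, and the 2 readings differ by far more than the SD of 0.533 between probe sets of a gene. A probe set shared by Obp57d, which encodes an odorant-binding protein, and Cpr57A was also left out of the comparisons. It had 806 on the tdf array and 393 on the yw array, a log2 ratio of 1.04, and cannot be assigned to either gene.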

How the results depend on the processing

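No paired analysis was possible because each genotype has 1 array. Medians were compared with a tolerance of the SD between probe sets of a gene over the square root of the number of genes, and counts within 1.5 times. Of 135 such comparisons for medians and counts, 118 stayed within it. The median log2 ratio of the cuticle protein genes was 0.31 under loess and 0.30 with plain probe sets only, and it was above 0 under all 8 alternatives run for it. With the floor at the 60th percentile, 4 genes were at least 2-fold higher and 0 lower, and the Edg median was 0.33. A 1.5-fold limit gave 23 higher and 5 lower genes, and a 3-fold limit 0 and 1, which follows from the limit. With plain probe sets only, the Ccp84A median was -0.047, since Ccp84Ad drops out. Quantile normalisation gave medians of -0.024 at 64A, 0.49 at 65E and -0.016 for the run from TwdlF to TwdlV. The floor at the 25th percentile gave medians of 0.056 at 49A, 1.06 for the Cpr78C genes and 0.49 for the run from TwdlM to TwdlQ, and the floor at the 60th percentile gave 0.23 at 84A. For single genes, 474 of 482 comparisons stayed within the SD, and no gene at least 2-fold apart changed sign. For moves without a stated reason the cause was not tested. The planned split by class of chitin-binding domain was not run.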
